A study of Mus musculus with 20 samples.

Results

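The comparison described here set 5 mouse liver tumors raised with Aldafermin and MYC (labelled Aldafermin+MYC) against 5 control livers, 10 of the 20 libraries of the study. The groups follow the sample labels and use no measured value. Messenger RNA was sequenced in bulk. The other 10 libraries came from 5 tumors raised with FGF19 and MYC and from 5 raised with MYC and a guide RNA against Trp53 (sgTrp53 + MYC). All mice of the 10 libraries were wild-type C57Bl6J. By the methods of the study they were young adult females, and plasmids were brought into a part of the hepatocytes by hydrodynamic gene transfer, the rapid injection of a large volume into the tail vein, together with the SB100X transposase that inserts them into the genome. The tumors received a plasmid for Aldafermin and one for human MYC. Each of the 5 tumors came from a different mouse. The livers are labelled non treated and healthy, whereas by the methods control mice were injected with a plasmid for the fluorescent protein RFP. No age is given in the labels, and tumor tissue also holds blood vessels, immune cells and remaining liver, which were not separated.

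FGF19 is a hormone that the intestine secretes when bile acids are absorbed. In hepatocytes it binds FGFR4 together with the co-receptor beta-klotho (Klb) and represses Cyp7a1, which encodes the rate-limiting enzyme of bile acid synthesis. Aldafermin is an engineered analog of FGF19. MYC is a transcription factor that pairs with MAX, binds E-box sequences and drives ribosome production, nucleotide synthesis and cell division. The adult hepatocyte secretes most plasma proteins, makes urea and bile acids, and carries the cytochrome P450 enzymes, functions that are low in fetal liver and are lost to various degrees in liver cancer.

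In the tumors, between 21604250 and 36119799 reads were counted on genes, and in the livers between 21376918 and 44427184. Levels are given in CPM, reads of a gene relative to the scaled library size (TMM method). The scaling factors were 0.615 to 0.682 in livers and 1.04 to 1.22 in tumors. The 10 most abundant genes of a library took 20.2 to 23% of liver reads and 6.39 to 8.96% of tumor reads. The choice of scaling therefore bears on every fold change given here, and on the direction of some. Of 50559 genes counted, 14333 with at least 1 CPM in at least 5 of the 20 libraries entered the quasi-likelihood test of edgeR, and a gene was called at a Benjamini-Hochberg adjusted p under 0.05.

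Some libraries stood apart within their group. On an axis that was set to 0 at the mean of the livers and to 1 at the mean of the other tumors, Aldafermin + MYC replicate 4 lay at 0.747 and the other 4 tumors between 0.983 and 1.11. The summed level of 8 hepatocyte markers was 26210 CPM in tumor 4, against 10400 to 18650 CPM in the other tumors and 189700 to 253000 CPM in livers. The summed level of the cytochrome P450 genes was 3080 CPM in tumor 4 and 439 to 720 CPM in the others. Tumor 4 had the highest level among the tumors for 43 of the 49 cytochrome P450 genes that were lower in tumors, and for 16 of 18 pericentral hepatocyte genes. Whether residual liver tissue had a part in its values was not tested, and where leaving it out moves a fold change by over 1.5 times the value without it is given too. Tumor 3 had the highest summed levels of stellate cell and fibroblast markers (2596 CPM, against 351 to 1057 CPM in the other tumors) and of macrophage and monocyte markers (2074 CPM, against 711 to 981 CPM). Tumor 5 had the highest summed level of erythroid markers (662.6 CPM, against 39.8 to 145 CPM). Among the livers, replicate 4 held the highest level of 35 of the 40 mitosis genes that were higher in tumors. It was also the highest liver for 636 of all 1827 genes at least 4-fold higher in tumors, 51 of which were at 0 in every liver.

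**Figure D1:**
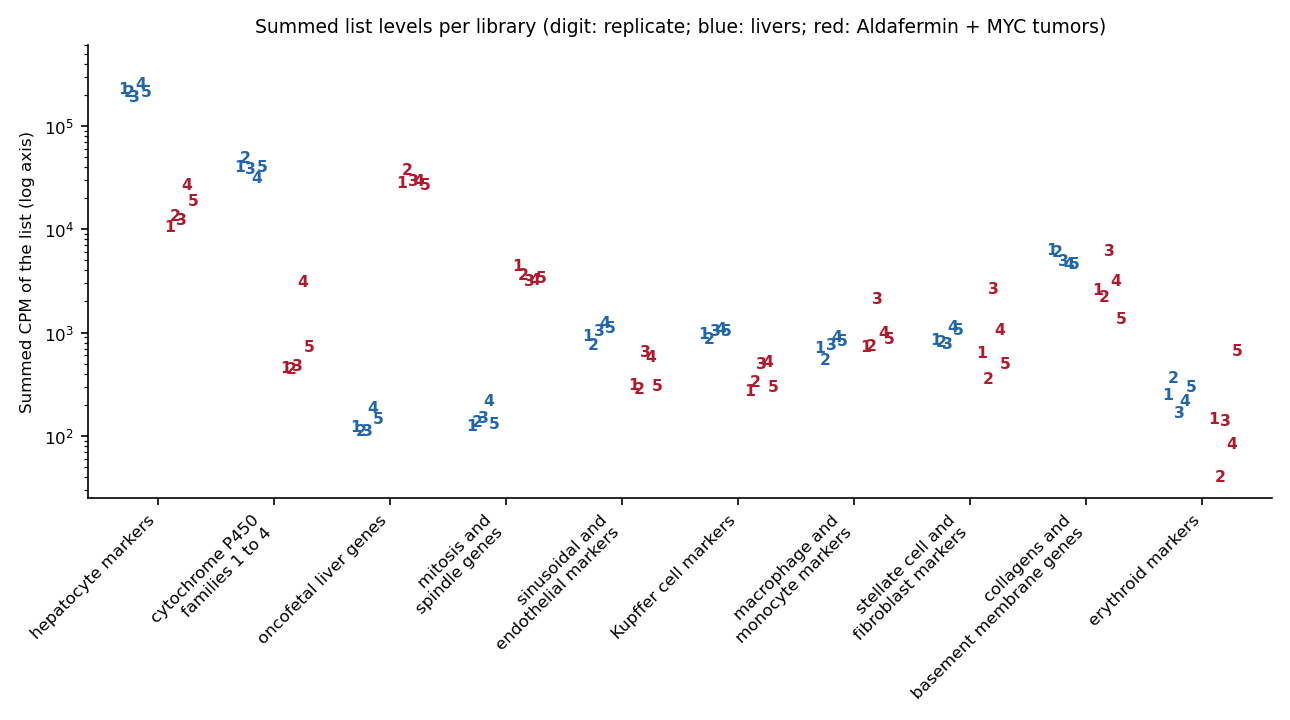
Summed CPM (log axis) of the members of 10 gene lists in each library, with blue digits for livers 1 to 5 and red digits for Aldafermin + MYC tumors 1 to 5. Hepatocyte markers were between 10400 and 26210 CPM in tumors, with tumor 4 highest, and at least 189700 CPM in livers, whereas oncofetal genes were at least 26500 CPM in tumors and at most 184.2 CPM in livers.

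Between Aldafermin + MYC tumors and livers, 10083 of 14333 genes were called (70.3%), of which 5506 were higher (38.4% of all genes tested) and 4577 lower (31.9%). A call with a change of at least 4-fold was made for 1827 genes upward (12.7%) and 1731 downward (12.1%). All 5 tumors lay above all 5 livers for 31.3% of the genes tested and below them for 27.5%. The median log2 fold change of all genes tested was 0.127, with quartiles of -0.92 and 1.20. With scaling by library size alone this median moved to 0.975 and the calls to 8618 higher and 2405 lower, so that 78.2% of the calls were upward in place of 54.6%. A gene list of hepatocyte functions or of cell division is therefore described beside these shares. In bulk tissue, fewer cells of a type and less RNA per cell cannot be told apart.

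**Figure D2:**
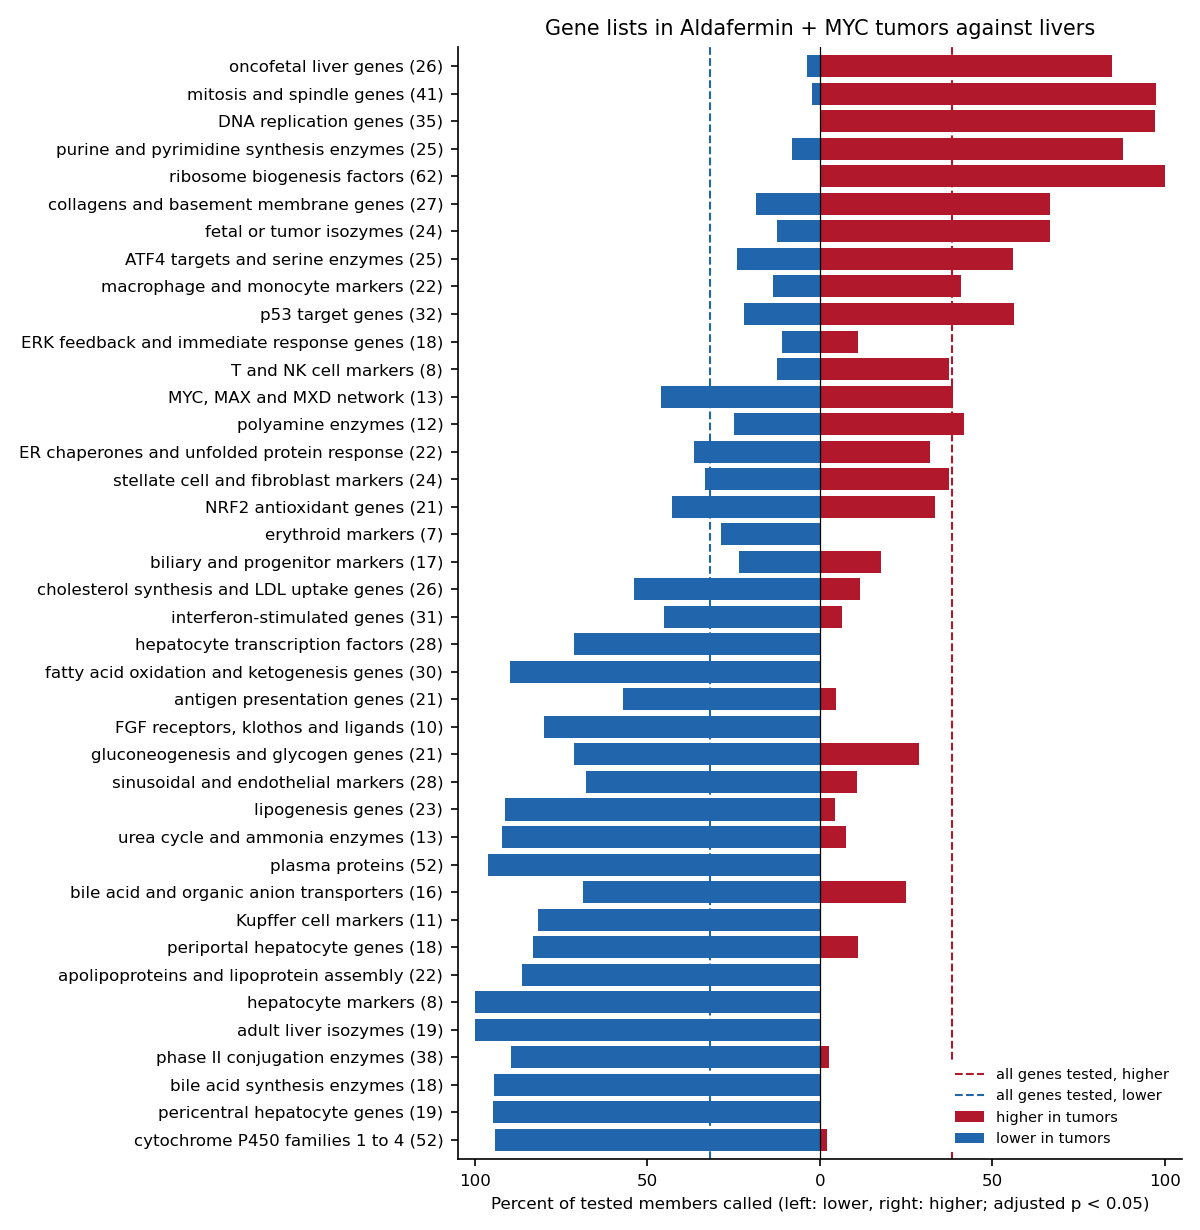
Percent of the tested members of each gene list called higher (red, right) or lower (blue, left) in Aldafermin + MYC tumors than in livers, for the 40 lists with at least 7 tested members, ordered by their median log2 fold change; numbers in parentheses are members tested. Dashed lines mark the shares over all 14333 genes, 38.4% higher and 31.9% lower; ribosome biogenesis factors stand at 100% higher and hepatocyte markers at 100% lower.

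Bile acid synthesis enzymes, the pathway that FGF19 represses, were lower in tumors for 17 of 18 members (31.9% over all genes), 14 of them at least 4-fold, with a median log2 fold change of -3.88. Cyp7a1 was at 0.0243, 0.174, 0, 28.8 and 0 CPM in tumors 1 to 5, against 199, 218, 534, 117 and 397 CPM in livers 1 to 5. Tumor 4 held nearly all tumor reads of Cyp7a1 and still lay below every liver. The gene was 51.5-fold lower (log2 fold change -5.69, SE 1.51, adjusted p = 0.00243), and the log2 fold change was -12.39 (SE 1.31) without tumor 4. Cyp8b1, the sterol 12-alpha-hydroxylase that sets the share of cholic acid, was at 0.267, 5.06, 1.79, 44.1 and 2.08 CPM in tumors and at 314, 520, 112, 196 and 336 CPM in livers. Again tumor 4 was the highest tumor and the groups did not overlap (log2 fold change -4.80, SE 1.05, adjusted p = 0.000481; -7.00 without tumor 4). Cyp27a1, which opens the alternative pathway, fell by 4.81 on the log2 scale (SE 0.50; -5.47 without tumor 4), and Baat, which joins bile acids to taurine, by 5.18 (SE 0.71; -6.25 without tumor 4).

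Transporters of bile acids and organic anions split by direction: 11 of 16 tested members were lower (31.9% over all genes) and 4 higher (38.4%). Slc10a1, the sodium-dependent uptake carrier of bile acids (NTCP), was at 60.0, 92.7, 44.9, 151 and 114 CPM in tumors and at 1230, 1359, 1206, 968 and 1174 CPM in livers. Every tumor was below every liver (12.8-fold lower, log2 fold change -3.68, SE 0.32, adjusted p = 5.83e-09). The canalicular bile salt export pump Abcb11 was lower by a similar amount (log2 fold change -3.88, SE 0.33). The 4 members that rose were Abcb1a, Abcg2, Abcc4 and Slc51b. Abcc4, an efflux pump of the sinusoidal membrane, was at 38, 37.5, 34.7, 18.3 and 13.4 CPM in tumors and at 6.96, 9.71, 10.7, 3.96 and 4.50 CPM in livers. All tumors lay above all livers (log2 fold change 1.98, SE 0.35, adjusted p = 4.90e-05), with tumors 4 and 5 nearest to them. Slc51b, a subunit of the OST transporter, was at 14, 7.42, 4.43, 3.54 and 47.5 CPM in tumors and between 0.660 and 2.03 CPM in livers. Tumor 5 was high, and the groups did not overlap (log2 fold change 3.50, SE 1.01, adjusted p = 0.00472; 2.51 without tumor 5). Abcb1a was no longer called against livers 1 to 3 or livers 4 to 5 alone, and Slc51b was not called against livers 4 to 5 alone.

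Of 17 genes for FGF receptors, klothos and ligands, 10 were expressed enough to be tested, 8 were lower (31.9% over all genes) and none was higher, with a median log2 fold change of -1.61. With scaling by library size alone 5 were lower and 2 higher. Fgfr4, the main FGF receptor of hepatocytes, was at 31.2, 24.9, 30.1, 24.7 and 21.9 CPM in tumors and at 80.9, 75.8, 78.1, 89.7 and 74.4 CPM in livers. Both groups were tight and did not overlap (3.00-fold lower, log2 fold change -1.59, SE 0.16, adjusted p = 3.61e-08). Its co-receptor Klb was at 136, 88.3, 68.7, 66.3 and 91.5 CPM in tumors and at 129, 133, 112, 88.7 and 84.9 CPM in livers. The Klb ranges overlapped and the difference did not pass the test (log2 fold change -0.28, SE 0.21, adjusted p = 0.243), but with scaling by library size alone Klb was called higher (log2 fold change 0.56), and without tumor 1 it was called lower (-0.48). Fgf1, a ligand of all FGF receptors, was at 6.10, 12.8, 5.31, 26.6 and 1.82 CPM in tumors and between 133 and 184 CPM in livers. It was 14.9-fold lower with no overlap (log2 fold change -3.89, SE 0.60, adjusted p = 1.04e-05; -4.58 without tumor 4). Fgf21, a hepatic hormone of the same family, fell by 3.99 on the log2 scale (SE 0.76). Fgf15, the mouse ortholog of FGF19, had 10 counts in all tumors and 0 in all livers and was not tested. The transgenes encode FGF19-type and MYC proteins of human origin, which the mouse annotation does not count.

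Genes that mark ERK signaling downstream of FGF receptors were called in few cases: 2 of 18 tested members were higher (38.4% over all genes) and 2 lower, with a median log2 fold change of 0.41. With scaling by library size alone 8 were higher and 2 lower, with a median of 1.27. Dusp6, the ERK phosphatase that ERK induces, was at 15.6, 28.0, 35.5, 30.3 and 16.2 CPM in tumors and at 101, 110, 33.5, 26.6 and 34.1 CPM in livers. Only livers 1 and 2 lay clear of the tumors, and the difference missed the threshold (log2 fold change -1.28, SE 0.59, adjusted p = 0.0604). It was called lower without liver 3, 4 or 5, at -1.44, -1.47 and -1.43, and was at -0.28 against livers 4 to 5 alone. Etv5, an ETS factor induced by ERK, had a log2 fold change of 1.11 (SE 0.54, adjusted p = 0.0750; 1.97 and called higher with scaling by library size alone). The 2 members called lower were the immediate early factor Egr1 (log2 fold change -2.94, SE 0.65) and Phlda1 (-3.94, SE 0.84). Of the 2 called higher, 1 rose at least 4-fold, and the largest log2 fold change of the list was 5.66. With a filter of at least 10 CPM in at least 5 libraries, 11 members were tested and 0 were called higher. A fit of only the Aldafermin + MYC tumors and livers called 5 of the 18 higher and 3 lower. The counts of this list thus depended on the setting in both directions.

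Endogenous Myc, the mouse gene, was at 2.45, 2.56, 7.42, 4.23 and 1.35 CPM in tumors and at 6.67, 5.24, 7.51, 11.4 and 6.42 CPM in livers. Tumor 3 fell within the liver range, and the gene was called lower (log2 fold change -1.05, SE 0.40, adjusted p = 0.0267). The call was lost without tumor 1, 2 or 5 or liver 4, with log2 fold changes of -0.94, -0.95, -0.78 and -0.84. It was also lost against livers 1 to 3 alone (-0.85) and with scaling by library size alone (-0.16). Its paralog Mycl was at 0.447 to 4.04 CPM in tumors and 33.9 to 54.0 CPM in livers, 25.6-fold lower (log2 fold change -4.68, SE 0.67, adjusted p = 4.26e-06; -5.39 without tumor 4). Of the partners and relatives of MYC, 5 of 13 tested members were higher (38.4% over all genes) and 6 lower (31.9%), near the shares of all genes, and with scaling by library size alone 8 were higher and 3 lower. Max, the obligate partner, rose by a log2 fold change of 1.13 (SE 0.13) and the antagonist Mxd3 by 4.10 (SE 0.53), whereas Mlxipl, the carbohydrate response factor of hepatocytes, fell by 2.25 (SE 0.24).

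Growth genes that MYC is known to drive were higher nearly throughout. All 62 ribosome biogenesis factors were called higher (38.4% over all genes), 41 of them at least 4-fold, with all 5 tumors above all 5 livers for each of the 62 (31.3% over all genes). Their median log2 fold change was 2.31, and 3.16 with scaling by library size alone. Ncl, nucleolin of the nucleolus, was at 2062, 1897, 1295, 1937 and 996 CPM in tumors and at 200, 229, 252, 199 and 191 CPM in livers. The lowest tumor, replicate 5, was far above the highest liver (7.63-fold, log2 fold change 2.93, SE 0.24, adjusted p = 1.93e-09). Nop56 and Fbl, core proteins of the small nucleolar particles that methylate ribosomal RNA, rose by 3.88 (SE 0.23) and 2.68 (SE 0.13). The smallest called change of the list was that of Pno1 (0.77, SE 0.20) and the largest that of Rrp1b (4.43, SE 0.25).

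Purine and pyrimidine synthesis enzymes were higher for 22 of 25 members, 15 of them at least 4-fold, with a median log2 fold change of 2.59. Cad, which catalyses the first steps of pyrimidine synthesis, was at 351, 348, 280, 288 and 156 CPM in tumors and at 9.25, 9.64, 17.9, 13.4 and 10.6 CPM in livers. No tumor came near the livers (23.4-fold higher, log2 fold change 4.55, SE 0.30, adjusted p = 1.08e-10). Impdh2, the inosine monophosphate dehydrogenase of the guanine branch, was at 339, 303, 217, 228 and 268 CPM in tumors and between 37.0 and 47.7 CPM in livers (log2 fold change 2.68, SE 0.15, adjusted p = 9.68e-12). Its paralog Impdh1 rose further, by 5.11 (SE 0.21), from 4.94 to 170 CPM. Paics, which acts in the middle of purine synthesis, went the other way (log2 fold change -0.52, SE 0.19, adjusted p = 0.0196), but the call was lost without tumor 3 (-0.41), and with scaling by library size alone the log2 fold change was 0.30. Among 12 polyamine enzymes, 5 were higher and 3 lower, near the 38.4% and 31.9% of all genes, and with scaling by library size alone 7 were higher and 1 lower. Odc1, ornithine decarboxylase and the entry to polyamine synthesis, was at 671, 539, 530, 419 and 859 CPM in tumors and at 81.6, 81.3, 84.5, 110 and 94.6 CPM in livers. All tumors exceeded all livers (log2 fold change 2.74, SE 0.21, adjusted p = 1.25e-09), and Srm, spermidine synthase, rose by 4.46 (SE 0.18).

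Promoters of these growth genes were read for the E-box CACGTG, the letters that MYC and MAX bind, in RefSeq windows of 300 bases (250 before and 50 after each start) on GRCm38.p6, on both strands. It was present in 14 of 65 windows of ribosome biogenesis factors (21.5%, 55 of 62 genes matched) and in 5 of 26 windows of nucleotide synthesis enzymes (19.2%, 22 of 25 genes matched), against 7.15% of all 32851 windows, 11.3% of those of genes called higher, 8.72% of those of genes called lower and 8.95% of those of tested genes not called. It was found in 6 of 33 windows of p53 target genes (18.2%), close to the share of the nucleotide enzymes, and in 0 of 12 windows of bile acid synthesis enzymes. These shares are descriptions without a test, and a match is not a proven site. The last 120 bases before the start are shown for Nop2, a ribosomal RNA methyltransferase of the list chosen for its motif (chr6:125131763-125131882, plus strand), and for Impdh2 (chr9:108560316-108560435, plus strand), with the E-box in capitals 60 and 110 bases before the start.
Nop2: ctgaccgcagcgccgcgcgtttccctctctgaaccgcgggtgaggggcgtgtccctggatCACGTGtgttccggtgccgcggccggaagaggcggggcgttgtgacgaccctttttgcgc
Impdh2: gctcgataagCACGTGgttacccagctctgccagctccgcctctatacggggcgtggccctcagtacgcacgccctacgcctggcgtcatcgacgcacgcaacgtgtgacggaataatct

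Cell division genes were far higher in tumors. Of 41 mitosis and spindle genes, 40 were higher, 39 at least 4-fold (12.7% over all genes), and the median log2 fold change was 5.85. Cdk1, the kinase that triggers mitosis (GRCm39 chr10:69170976-69236595), was at 230, 159, 155, 143 and 213 CPM in tumors and at 1.44, 1.65, 2.92, 7.17 and 2.63 CPM in livers. Liver 4 was the highest liver, and the lowest tumor was still well above it (57.6-fold, log2 fold change 5.85, SE 0.37, adjusted p = 6.91e-11). Mki67, the proliferation marker Ki-67, was at 166, 180, 152, 176 and 74.5 CPM in tumors and at 2.94, 2.2, 3.36, 6.28 and 1.59 CPM in livers. Tumor 5 had the lowest Mki67 level of the tumors without nearing the livers (46.3-fold, log2 fold change 5.53, SE 0.39, adjusted p = 2.46e-10). Pttg1, the securin that holds back separase, was the one member that went down, at 11.2 to 12.8 CPM in tumors and 29.1 to 36.2 CPM in livers (log2 fold change -1.41, SE 0.18, adjusted p = 1.33e-06). DNA replication genes were higher for 34 of 35 members, 28 of them at least 4-fold, with a median of 3.38. Mcm2 of the replicative helicase rose by 4.83 (SE 0.24), the origin licensing factor Cdc6 by 6.68 (SE 0.39), and Pcna, the sliding clamp of the polymerases, by 2.52 (SE 0.19).

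The cell cycle genes homology region TTTGAA, which the DREAM and MuvB complexes bind in late cell cycle genes, was in 29 of 38 windows of mitosis and spindle genes (76.3%, 35 of 41 genes matched), against 17.9% of all windows and 11.8% of windows of tested genes not called. Among windows of cytochrome P450 genes, which were lower in tumors, 17 of 50 held it (34%). The E2F letters TTTCGCGC were in 6 of 32 windows of DNA replication genes (18.8%, 27 of 35 genes matched), against 0.323% of all windows. Both motifs were searched on both strands and do not overlap each other. The last 120 bases before the start are shown for Mki67 (chr7:135716380-135716499, minus strand) and Cdk1 (chr10:69352913-69353032, minus strand), with TTTGAA in capitals, and for Mcm6 of the helicase, chosen for its motif (chr1:128359706-128359825, minus strand), with the E2F letters, here on the opposite strand, in capitals. Coordinates are of GRCm38.p6.
Mki67: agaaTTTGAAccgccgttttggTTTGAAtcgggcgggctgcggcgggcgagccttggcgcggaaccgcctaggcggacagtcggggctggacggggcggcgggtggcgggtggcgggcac
Cdk1: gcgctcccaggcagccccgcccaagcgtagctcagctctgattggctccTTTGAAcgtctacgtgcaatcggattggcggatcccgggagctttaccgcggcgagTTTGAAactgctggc
Mcm6: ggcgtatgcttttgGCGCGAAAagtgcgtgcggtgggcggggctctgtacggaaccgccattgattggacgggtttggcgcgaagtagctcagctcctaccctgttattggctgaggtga

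**Figure D3:**
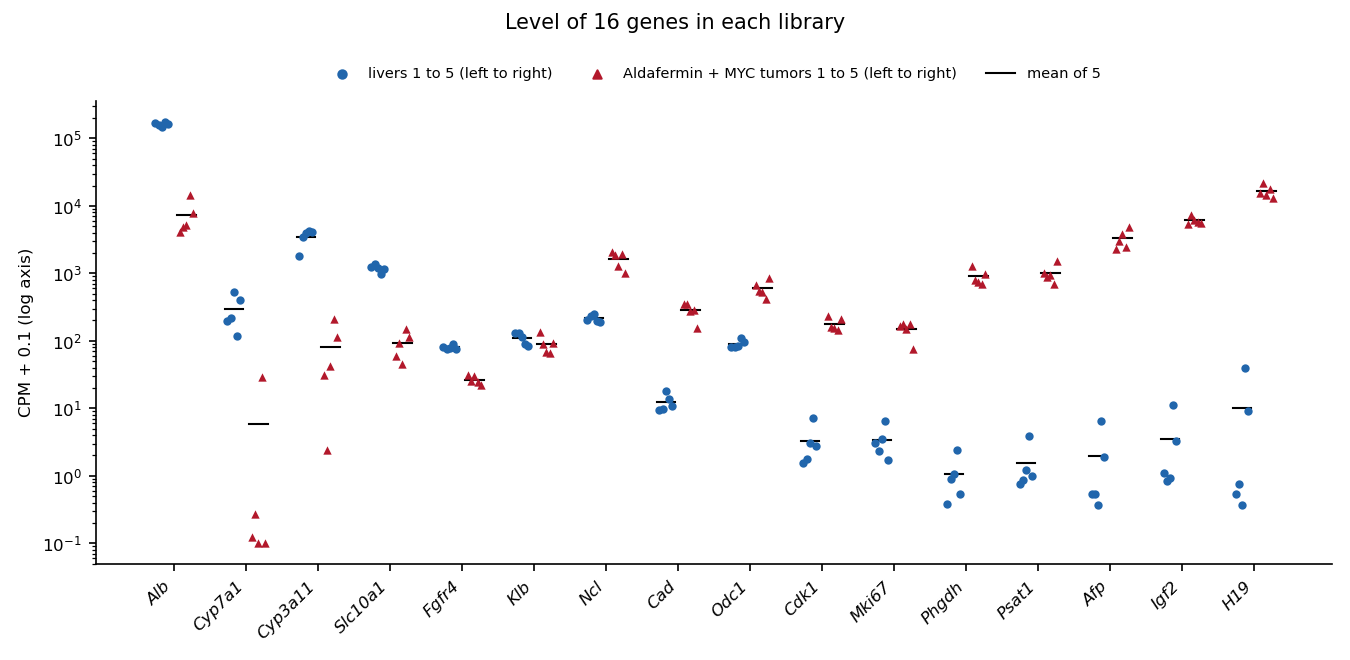
CPM plus 0.1 (log axis) of 16 genes in each of 5 livers (blue circles) and 5 Aldafermin + MYC tumors (red triangles), in replicate order from left to right, with a black line at the mean of 5. Only Klb overlaps between the groups; for Cyp7a1 tumor 4 (28.8 CPM) stands far above the other tumors, and for H19 liver 4 (39.1 CPM) above the other livers.

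Secreted plasma proteins, the main product of adult hepatocytes, were lower for 50 of 52 members (31.9% over all genes), 42 of them at least 4-fold (12.1% over all genes), with a median log2 fold change of -2.71 and none higher. Alb, serum albumin, was at 4041, 4900, 5161, 14280 and 7759 CPM in tumors and at 166400, 156000, 147500, 177100 and 160500 CPM in livers. Tumor 4 held the highest tumor level and lay far below the livers (22.4-fold lower, log2 fold change -4.48, SE 0.56, adjusted p = 9.02e-07). Ttr, transthyretin, fell by 3.58 (SE 0.41), the antithrombin gene Serpinc1 by 2.62 (SE 0.26), and the complement gene C9 by 4.89 (SE 1.15; -6.20 without tumor 4). Apolipoproteins and lipoprotein assembly genes were lower for 19 of 22 members with none higher. Apob, the scaffold of very low density lipoproteins, was at 1052 to 1269 CPM in tumors and 3415 to 4979 CPM in livers, one of the smaller declines (3.67-fold, log2 fold change -1.87, SE 0.18, adjusted p = 2.83e-08).

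Cytochrome P450 families 1 to 4 oxidize drugs, steroids and fatty acids. Their genes were lower for 49 of 52 tested members (31.9% over all genes), 48 of them at least 4-fold (12.1% over all genes). The median log2 fold change was -5.67, and -7.67 without tumor 4. Cyp2e1, the ethanol-oxidizing enzyme of pericentral hepatocytes, was at 15.3, 0.347, 13.8, 837 and 4.01 CPM in tumors and at 9351, 11850, 7945, 5499 and 8898 CPM in livers. Tumor 4 was far above the other tumors and below every liver, and without it the log2 fold change moved from -5.64 (SE 1.69, adjusted p = 0.00589) to -10.02 (SE 1.68). Cyp3a11, a drug-metabolizing enzyme induced through PXR, was at 31.4, 2.33, 41.9, 213 and 114 CPM in tumors and at 1813, 3484, 3909, 4181 and 4043 CPM in livers. Its groups did not overlap (43.3-fold lower, log2 fold change -5.44, SE 1.01, adjusted p = 8.82e-05; -6.20 without tumor 4). Cyp2s1, an extrahepatic family member, was the one gene of the list called higher (log2 fold change 2.17, SE 0.74, adjusted p = 0.0134; not called without tumor 1, at 1.65), with levels of 1.26 to 10.7 CPM in tumors and 0.205 to 2.43 CPM in livers. Members of the Cyp2, Cyp3a, Cyp4a, Serpina3, Sult2a and Mup families have near-identical copies, and how the unique-read counting divided reads among them is uncertain. Phase II conjugation enzymes were lower for 34 of 38 tested members with a median of -3.25. Gstp1, a glutathione transferase that liver tumors often express, was the 1 member called higher (log2 fold change 0.55, SE 0.17), a call lost against livers 4 to 5 alone.

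Hepatocyte transcription factors were lower for 20 of 28 members, with none higher and a median of -1.33, and with scaling by library size alone 13 were lower and 3 higher (31.9% and 38.4% are the shares over all genes). Hnf4a, the nuclear receptor that maintains hepatocyte identity, was at 520, 553, 381, 531 and 367 CPM in tumors and at 1107, 1090, 1043, 1054 and 1069 CPM in livers. The livers were nearly equal and every tumor was below them (2.28-fold lower, log2 fold change -1.19, SE 0.20, adjusted p = 2.73e-05), but with scaling by library size alone it was not called (-0.34). Larger declines were measured for the xenobiotic receptor Nr1i3 (log2 fold change -5.25, SE 0.56), for Ppara, the fatty acid receptor (-3.33, SE 0.35), for the bile acid receptor Nr1h4 (-2.36, SE 0.20) and for Cebpa (-2.31, SE 0.21). Nr0b2, the repressor SHP that Nr1h4 induces, had overlapping levels and did not pass the test (log2 fold change 0.21, SE 0.85, adjusted p = 0.837; -0.081 without tumor 5). The HNF4 motif CAAAGTCCA was searched on both strands. Of the windows of bile acid synthesis enzymes, 2 of 12 held it (16.7%, 11 of 18 genes matched), against 0.475% of all windows. Among windows of cytochrome P450 genes, 7 of 50 held it (14%, 45 of 53 genes matched). It was in 0 of 43 windows of plasma proteins. The stretches of Cyp8b1 (GRCm38.p6 chr9:121916306-121916425, minus strand) and Cyp3a11 (chr5:145879855-145879974, minus strand) carry it in capitals 67 and 109 bases before the start.
Cyp8b1: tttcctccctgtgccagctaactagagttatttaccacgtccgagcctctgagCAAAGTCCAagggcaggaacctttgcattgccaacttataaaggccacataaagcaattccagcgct
Cyp3a11: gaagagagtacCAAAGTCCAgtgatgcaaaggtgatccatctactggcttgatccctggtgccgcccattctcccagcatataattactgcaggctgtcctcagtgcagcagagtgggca

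Genes of both liver zones were lower. Pericentral hepatocyte genes, expressed around the central vein, were lower for 18 of 19 tested members (31.9% over all genes), with a median of -4.54. Periportal genes were lower for 15 of 18, with a median of -3.07, and higher for 2 (38.4% over all genes). Axin2, the Wnt target used to mark pericentral hepatocytes, was at 0, 0, 0.0534, 1.69 and 0 CPM in tumors and at 26.0, 25.2, 16.9, 4.44 and 7.45 CPM in livers. Among the livers, replicates 4 and 5 had the lowest Axin2 levels. The log2 fold change was -5.63 (SE 1.25, adjusted p = 0.000529), and without tumor 4 it was -9.95. Glul, glutamine synthetase of the innermost pericentral layer, fell by 2.41 (SE 0.32). Cps1, the first enzyme of the urea cycle and periportal, was at 400, 710, 342, 711 and 745 CPM in tumors and at 4213, 6008, 5615, 4776 and 5277 CPM in livers. Its decline was 8.90-fold with no overlap (log2 fold change -3.15, SE 0.26, adjusted p = 2.51e-09), and 12 of 13 urea cycle and ammonia genes were lower. Cdh1, E-cadherin, and Aldh1b1 were the 2 periportal genes that rose, by 2.23 (SE 0.29) and 1.69 (SE 0.20).

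Isozymes of central metabolism divided by their form. All 19 tested isozymes of adult liver were lower (31.9% over all genes), 16 of them at least 4-fold (12.1%), with a median of -3.23. Of 24 tested isozymes of fetal, extrahepatic or tumor tissue, 16 were higher (38.4% over all genes) and 3 lower, with a median of 1.53. Pklr, the liver pyruvate kinase, was at 96.4, 76.4, 83.8, 131 and 62.6 CPM in tumors and at 670, 689, 991, 464 and 522 CPM in livers. In the opposite direction, the M-type kinase Pkm was at 1452, 1395, 1350, 1258 and 1017 CPM in tumors and at 30.2, 24.4, 28.2, 42.8 and 28.2 CPM in livers. The ratio of Pklr to Pkm reads, which is comparable between libraries but not a ratio of molecules, went from 10.9 to 35.2 in livers to 0.0548 to 0.104 in tumors. Pkm was 42.1-fold higher (log2 fold change 5.40, SE 0.22, adjusted p = 2.10e-13) and Pklr 7.42-fold lower (log2 fold change -2.89, SE 0.29, adjusted p = 5.01e-08). Hk2, the high-affinity hexokinase, was at 22.1 to 48.0 CPM in tumors and 1.31 to 2.16 CPM in livers (log2 fold change 4.27, SE 0.28, adjusted p = 8.49e-11). The exceptions among fetal or tumor isozymes were Aldoc, Ldhb and Pfkm, which were lower; the call of Aldoc was lost without tumor 1, 3 or 4 or liver 1 or 3.

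**Figure D4:**
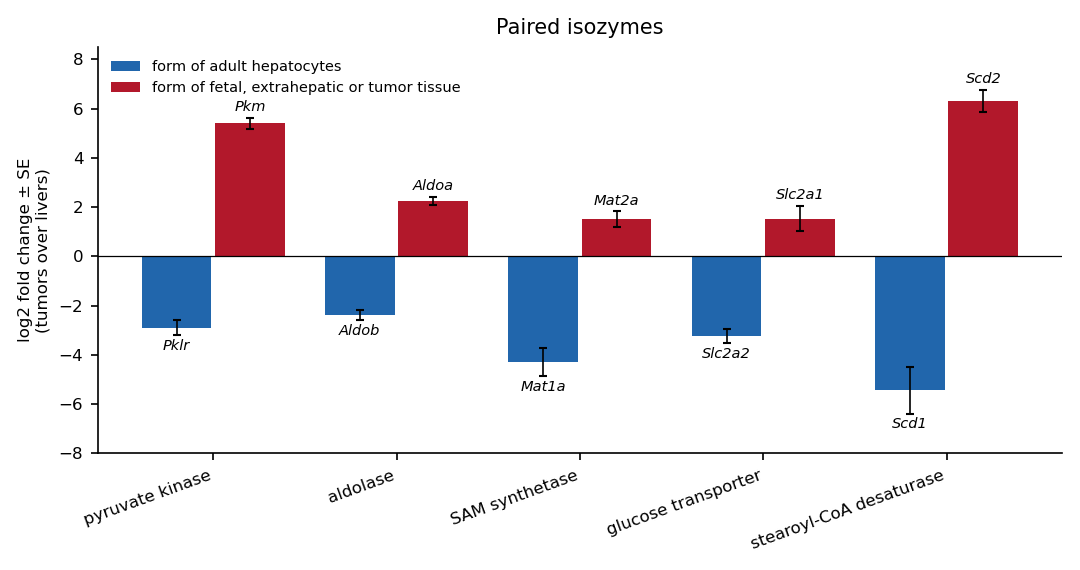
Log2 fold change of Aldafermin + MYC tumors over livers (bars, with error bars of 1 standard error from the model) for 5 pairs of isozymes, the form of adult hepatocytes in blue and the other form in red. Each blue bar points down and each red bar up, from Pklr at -2.89 against Pkm at 5.40 to Scd1 at -5.44 against Scd2 at 6.30.

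Of 23 lipogenesis genes, 21 were lower (31.9% over all genes) and 1, Scd2, higher (38.4% over all genes). With scaling by library size alone 13 were lower and 2 higher. Scd1, the stearoyl-CoA desaturase of adult liver, was at 125, 204, 204, 1093 and 94.2 CPM in tumors and at 5920, 13090, 26280, 16720 and 12430 CPM in livers. Scd2, its form in fetal liver and brain, was at 1201, 1132, 1092, 804 and 582 CPM in tumors and at 14.2, 9.49, 12.6, 14.8 and 9.88 CPM in livers. The genes lie 87.6 kb apart on chromosome 19 of GRCm39 (Scd2 at chr19:44281613-44295303 and Scd1 at chr19:44382894-44399154) and moved in opposite directions. Scd1 was 43.3-fold lower (log2 fold change -5.44, SE 0.94, adjusted p = 4.27e-05; -6.57 without tumor 4) and Scd2 79.1-fold higher (log2 fold change 6.30, SE 0.45, adjusted p = 3.42e-10). Fatty acid oxidation and ketogenesis genes were lower for 27 of 30 members with a median of -1.34, and for 16 with scaling by library size alone. Cpt1a, which brings fatty acids into mitochondria, fell by 1.08 (SE 0.33), a call lost against livers 4 to 5 alone and with scaling by library size alone. Cholesterol synthesis and LDL uptake genes were called lower for 14 and higher for 3 of 26, but with scaling by library size alone 8 were lower and 12 higher. Sqle, squalene epoxidase (0.64, SE 0.23), and the sterol-responsive factor Srebf2 (0.93, SE 0.22) were among those called higher, the former not without liver 2 or 5 (0.55 and 0.53).

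Gluconeogenesis and glycogen genes were lower for 15 of 21 members (31.9% over all genes) and higher for 6 (38.4%). Pck1, the cytosolic phosphoenolpyruvate carboxykinase, was at 29.8, 13.4, 9.98, 379 and 272 CPM in tumors and at 5007, 4890, 3862, 6997 and 6870 CPM in livers. Tumors 4 and 5 were above the other tumors and no tumor reached the livers (39.2-fold lower, log2 fold change -5.29, SE 1.22, adjusted p = 0.000738; -6.09 without tumor 4). The liver glycogen synthase Gys2 fell by 4.54 (SE 0.60) and fructose bisphosphatase (Fbp1) had a log2 fold change of -5.93 (SE 1.22; -7.72 without tumor 4), whereas the brain form of glycogen phosphorylase, Pygb, rose by 3.20 (SE 0.36).

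Serine and asparagine synthesis genes were far higher in tumors. Phgdh, the first enzyme of serine synthesis, was at 1271, 806, 747, 687 and 982 CPM in tumors and at 0.287, 0.806, 0.972, 2.32 and 0.438 CPM in livers. Psat1, the next enzyme, was at 1013, 867, 937, 692 and 1532 CPM in tumors and at 0.646, 0.770, 1.1, 3.76 and 0.877 CPM in livers. For both genes liver 4 was the highest liver and lay far below every tumor. Phgdh rose 946-fold (log2 fold change 9.89, SE 0.48, adjusted p = 1.73e-12) and Psat1 720-fold (9.49, SE 0.55, adjusted p = 1.90e-11; 10.20 without liver 4). Asns, asparagine synthetase, was at 201 to 344 CPM in tumors and 0.143 to 2.73 CPM in livers (log2 fold change 8.47, SE 0.60, adjusted p = 3.14e-10; 9.72 without liver 4). Of the 25 tested ATF4 targets and serine enzymes as a whole, 14 were higher (38.4% over all genes) and 6 lower (31.9%). The lower ones included Vldlr and Fgf21.

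Oncofetal genes, which fetal liver expresses and adult liver silences, were higher for 22 of 26 tested members, 19 of them at least 4-fold (12.7% over all genes), with a median log2 fold change of 5.91. Afp, alpha-fetoprotein, was at 2306, 3051, 3817, 2484 and 4816 CPM in tumors and at 0.430, 0.440, 0.265, 6.35 and 1.79 CPM in livers. Livers 4 and 5 held more Afp reads than livers 1 to 3 and stayed far below every tumor (1818-fold higher, log2 fold change 10.83, SE 0.91, adjusted p = 3.45e-09; 12.10 without liver 4). Afp lies 13.9 kb from Alb on chromosome 5 of GRCm39 (Alb at chr5:90608647-90624696 and Afp at chr5:90638584-90656766, both on the plus strand), and the genes moved in opposite directions. Igf2, the fetal growth factor, was at 5453, 7365, 6242, 5747 and 5610 CPM in tumors and at 1.00, 0.733, 0.839, 11.2 and 3.23 CPM in livers. H19, the imprinted noncoding RNA that lies 70.5 kb from it on chromosome 7, was at 15260, 21850, 14570, 17510 and 13240 CPM in tumors and at 0.430, 0.660, 0.265, 39.1 and 9.01 CPM in livers. Both were again highest in liver 4 among the livers, and both were far higher in every tumor (log2 fold changes 10.82, SE 0.83, adjusted p = 1.02e-09 for Igf2 and 10.71, SE 1.23, adjusted p = 2.55e-07 for H19). Without liver 4 these were 12.02 and 12.61. Against livers 1 to 3 alone the log2 fold changes of Afp, Igf2 and H19 were 13.08, 12.80 and 15.13, and against livers 4 to 5 alone they were 9.67, 9.71 and 9.41. Gpc3, glypican 3, a surface proteoglycan of liver cancers, was at 262 to 349 CPM in tumors and 0.683 to 2.34 CPM in livers, with no sign of a raised liver 4 (log2 fold change 7.61, SE 0.48, adjusted p = 7.33e-11). Tumor 4 lay within the range of the others for Afp, Igf2, H19 and Gpc3.

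Some genes had no liver reads at all. Lin28b, the RNA-binding protein that blocks let-7 maturation, was at 32.3, 1.76, 17.3, 2.65 and 7.88 CPM in tumors and 0 in every liver, a wide spread among tumors. A floor of 3 counts per liver library gives at least 79.1-fold higher levels, and this floor covers counting error only. Arxes1, an endoplasmic reticulum gene known from adipogenesis, was at 21.3 to 31.6 CPM in the tumors and 0 in the livers (at least 170-fold higher). The same bound was at least 112-fold for Lingo3, 85.1-fold for Slc36a2 and 64.3-fold for Slc7a9. Muc13, a mucin of epithelial surfaces, was at 37.1, 6.92, 15.7, 33.3 and 33.5 CPM in tumors and had 1 read in all livers together, a ratio of 2550 with an exact counting interval of 458 to 101000. Sall4, the oncofetal zinc finger factor, had 2 reads in all livers, a ratio of 1390 (384 to 11500).

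At the other end of the ranking, among called genes at 10 CPM or more whose groups did not overlap, the 12 with the largest declines included the steroid sulfotransferases Sult2a1 and Sult2a2, Hamp2 of the hepcidin family, the fatty acid hydroxylases Cyp4a10 and Cyp4a14, the major urinary protein Mup10, the glucuronosyltransferase Ugt1a5 and the kinase Fn3k, and also Lrit1, Ptgds and Tafa2. Their log2 fold changes ran from -7.93 for Sult2a2 to -6.95 for Fn3k. The order rested on single libraries. Without tumor 4 the values were -11.94 for Hamp2, -10.69 for Cyp4a14, -12.34 for Mup10, -11.15 for Ugt1a5, -11.05 for Cyp4a10, -10.03 for Lrit1, -8.54 for Tafa2 and -9.63 for Fn3k. Without tumor 5 they were -9.95 for Sult2a1 and -9.09 for Sult2a2, without liver 2 that of Mup10 was -5.69, without liver 1 that of Sult2a1 was -6.80, and without liver 3 that of Ptgds was -6.58.

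**Figure D5:**
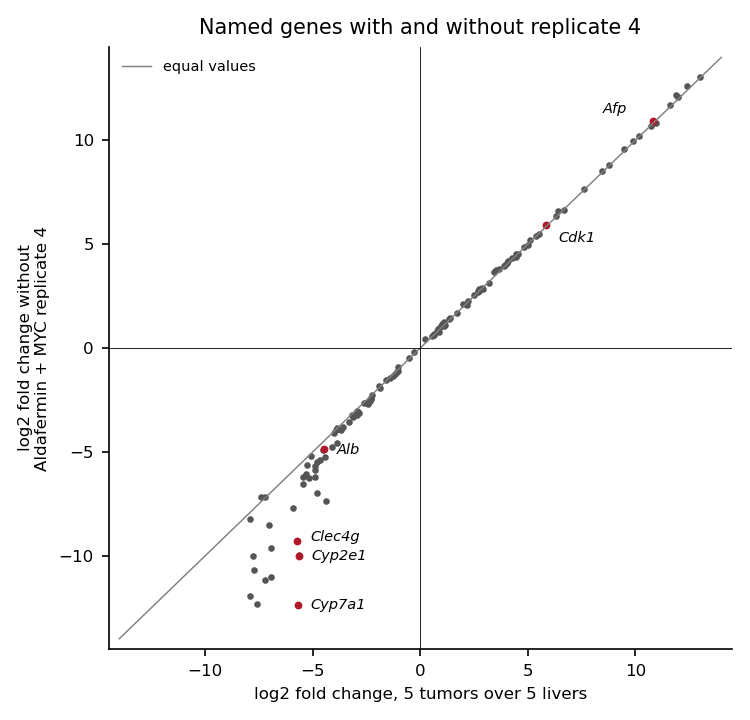
Log2 fold change of 128 named genes over livers with all 5 Aldafermin + MYC tumors (horizontal axis) and without tumor 4 (vertical axis). The grey line marks equal values. Cdk1 and Afp lie on the line, as do some genes that were lower, whereas Cyp2e1 and Clec4g fall far below it and Cyp7a1 reaches -12.39.

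Targets of p53 were called higher for 18 of 32 members (38.4% over all genes) and lower for 7 (31.9%), with a median of 0.68, and with scaling by library size alone for 24 and 4. Cdkn1a, the cell cycle inhibitor p21, was at 86.4, 47.3, 138, 77.0 and 107 CPM in tumors and at 3.37, 2.38, 1.15, 16.6 and 6.69 CPM in livers. Every tumor exceeded every liver, with liver 4 the nearest (15.3-fold higher, log2 fold change 3.93, SE 0.51, adjusted p = 1.40e-06; 4.74 without liver 4). The death receptor Eda2r rose by 3.42 (SE 0.61; 2.75 without tumor 3), Phlda3 by 2.75 (SE 0.46), Ccng1 by 0.88 (SE 0.20) and the p53 antagonist Mdm2 by 0.62 (SE 0.15). The member with the largest increase, Psrc1 (8.79, SE 0.37), encodes a spindle protein. Compared with sgTrp53 + MYC tumors, in which Trp53 was targeted by a guide RNA, Aldafermin + MYC tumors had higher levels of Cdkn1a (log2 difference 1.97, SE 0.47, adjusted p = 0.00680), Eda2r (4.88, SE 0.64), Ccng1 (1.44, SE 0.21) and Phlda3 (2.28, SE 0.45). Across all genes, 17.7% were called in that comparison, which is also one between deposited tables.

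The list of endothelial markers joins those of sinusoidal endothelium, the fenestrated lining of liver capillaries, with general endothelial ones. Of its 28 members, 19 were lower (31.9% over all genes) and 3 higher (38.4%). With scaling by library size alone, 12 were lower and 6 higher. Clec4g, a lectin of sinusoidal endothelium, was at 0.121, 0.273, 0.0534, 8.04 and 0.0842 CPM in tumors and at 82.8, 61.6, 87.6, 93.7 and 102 CPM in livers. Tumor 4 held most of the tumor reads (52.4-fold lower, log2 fold change -5.71, SE 1.17, adjusted p = 0.000235; -9.28 without tumor 4). The 3 that rose were Cd34, Emcn and Egfl7, of which Cd34, a mark of capillarized vessels, rose by 2.71 (SE 0.22). All 3 are general endothelial genes, but other such genes of the list, Pecam1 and Plvap, were not called higher. The call of Egfl7 was lost without tumor 5, liver 1 or liver 2. Kupffer cell markers, those of the resident liver macrophages, were lower for 9 of 11 members with none higher, and with scaling by library size alone for 6 with 1 higher. Clec4f, which in mice is restricted to Kupffer cells, was at 1.07, 0, 1.89, 36.3 and 1.07 CPM in tumors and at 158, 136, 165, 189 and 184 CPM in livers. Here too tumor 4 stood above the other tumors and below the livers (20.9-fold lower, log2 fold change -4.39, SE 1.17, adjusted p = 0.00249; -7.37 without tumor 4).

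Of 22 general macrophage and monocyte markers, 9 were higher, near the 38.4% of all genes, and 3 lower (31.9% over all genes). The 3 lower ones were Csf1r, Cd163 and Mrc1, and the lowest log2 fold change of the list was -3.59. The count of higher markers rested on single libraries and on the scaling. It was 3 without tumor 3, 14 without tumor 1, 5 without liver 2 or liver 5, and 18 with scaling by library size alone. The member with the largest increase was Gpnmb, a lysosomal glycoprotein of lipid-laden macrophages that other cells also express. It was at 16.9, 8.81, 118, 12.4 and 29.5 CPM in tumors and at 0.137 to 0.717 CPM in livers. Tumor 3 was the highest, and the groups did not overlap (83.8-fold higher, log2 fold change 6.39, SE 0.85, adjusted p = 1.73e-06; 5.26 without tumor 3). Collagens and basement membrane genes were higher for 18 of 27 tested members (38.4% over all genes) and lower for 5 (31.9%), with Fn1 among the lower. Tumor 3 had the highest level in 16 of the 18. Without tumor 3, 15 were higher and 6 lower, and the median log2 fold change was 1.055 in place of 1.63. The summed level of the list was 2564, 2163, 6030, 3089 and 1344 CPM in tumors and 4546 to 6179 CPM in livers. Col1a1, the main fibrillar collagen, was at 145, 98.2, 871, 235 and 49.9 CPM in tumors and at 16.3, 22.3, 6.76, 18.1 and 22.8 CPM in livers. It was higher in all tumors (16.2-fold, log2 fold change 4.02, SE 0.71, adjusted p = 5.06e-05; 2.94 without tumor 3). Among stellate cell and fibroblast markers, 9 of 24 were higher and 8 lower, near the 38.4% and 31.9% of all genes. All 9 and all 8 changed at least 4-fold, however, against 12.7% and 12.1% over all genes. Acta2, smooth muscle actin of activated cells, rose by 5.02 (SE 0.55; 4.24 without tumor 3), whereas genes of quiescent stellate cells fell, Lrat by 4.92 (SE 0.74; -5.89 without tumor 4) and Reln by 4.41 (SE 0.91; -5.26 without tumor 4).

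Lymphocyte genes were scarce. Only 8 of 28 T and NK cell markers, 3 of 13 B cell and plasma cell markers and 4 of 14 neutrophil markers passed the filter. Of the 8 T and NK markers, 3 were higher, near the 38.4% of all genes, and 1 was lower (31.9% over all genes). Of 3 tested B cell and plasma cell markers 2 were lower (31.9% over all genes), and of 4 neutrophil markers 1 was higher (38.4%). The count of higher neutrophil markers was 0 without tumor 5 or liver 2, 3 or 4, and 3 with scaling by library size alone. Summed neutrophil markers were at 31.04 CPM in tumor 5, 4.275 to 11.98 CPM in the other tumors and 5.257 to 6.614 CPM in livers. Without tumor 3 or liver 3, 1 T and NK marker was higher. The median log2 fold change of the 8 tested T and NK markers was 0.25. Cd3e, Cd8a and Cd79a did not pass the filter. Their means were 0.451, 0.446 and 0.257 CPM in tumors and 0.690, 0.496 and 1.75 CPM in livers. The 1 T and NK marker called lower was Zap70, a kinase of T cell receptor signaling. It was at 0.0842 to 2.08 CPM in tumors and 10.5 to 39.6 CPM in livers (29.8-fold lower, log2 fold change -4.90, SE 0.84, adjusted p = 3.80e-05; -5.66 without tumor 4). Antigen presentation genes were lower for 12 of 21 members and higher for 1, and with scaling by library size alone for 8 and 4. H2-K1, a class I heavy chain, was at 184, 224, 366, 479 and 169 CPM in tumors and between 2031 and 2355 CPM in livers, with tumors 3 and 4 highest among tumors (7.72-fold lower, log2 fold change -2.95, SE 0.34, adjusted p = 3.17e-07). Its partner B2m fell by 2.84 (SE 0.31). Of 31 interferon-stimulated genes, 14 were lower (31.9% over all genes) and 2 higher (38.4%). With scaling by library size alone, however, 4 were lower and 3 higher, and without tumor 5 the count of lower genes was 9. One of the 2 called higher with all libraries was Cxcl10, a chemokine that attracts T cells (log2 fold change 3.66, SE 0.69; 2.65 without tumor 3), with its highest level in tumor 3.

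Of 17 tested biliary and progenitor markers, 3 were higher (38.4% over all genes) and 4 lower (31.9%), and with scaling by library size alone 3 were higher and 0 lower. Sox9 and Epcam were among the lower ones, but neither was called with that scaling or against livers 4 to 5 alone, nor Epcam without tumor 2 or tumor 5, and Krt19 did not pass the test (adjusted p = 0.150). Of 22 endoplasmic reticulum chaperone and unfolded protein response genes, 7 were higher and 8 lower, near the 38.4% and 31.9% of all genes, and with scaling by library size alone 13 were higher and 5 lower. Manf, a secreted stress factor, rose by 1.40 (SE 0.25) and the stress sensor Ern1 fell by 2.29 (SE 0.28). NRF2 antioxidant genes were likewise divided, 7 higher and 9 lower of 21 (38.4% and 31.9% over all genes). With scaling by library size alone 9 were higher and 6 lower. Nqo1 fell by 4.10 (SE 0.68; -4.76 without tumor 4) and the glutathione exporter Abcc1 rose by 2.85 (SE 0.22). Erythroid markers had 2 of 7 lower (4 without tumor 5) and none higher, and tumor 5 had the most erythroid reads.

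Against FGF19 + MYC tumors, 0% of genes were called in the same quasi-likelihood model (0 genes, with 1048 at an unadjusted p under 0.05). Cyp7a1 illustrates how wide the uncertainty of that comparison was, with a log2 difference of 2.30 (SE 1.39, adjusted p = 0.807), whereas that of Fgfr4 was 0.08 (SE 0.15, adjusted p = 0.987). Levels varied more among the Aldafermin + MYC tumors than among the livers: the SD of log2 CPM had a median of 0.401 in tumors and 0.248 in livers, and it was larger in tumors for 75.7% of the genes tested.

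The mouse numbers of the livers fall into 2 ranges, livers 1 to 3 and livers 4 to 5, and the comparison was repeated with each range, a choice made after seeing the data. Against livers 1 to 3 alone 5057 genes were higher and 4243 lower, and against livers 4 to 5 alone 4196 were higher and 3781 lower. Of the calls made with all livers, 9208 and 7916 were kept in the same direction, and 0 took the opposite one. The log2 fold changes that moved by over 1.5 times between the ranges included, beside Afp, Igf2 and H19, those of Cdkn1a (5.33 against livers 1 to 3 and 2.97 against livers 4 to 5), Asns (9.61 and 7.51), Cdk1 (6.48 and 5.20) and Axin2 (-6.13 and -4.16).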

How the data were processed

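Libraries of the 20 samples were made from mRNA with a stranded TruSeq kit from RNeasy-purified RNA. The reads were aligned by the authors with HISAT2 to mm39 and counted per RefSeq gene with htseq-count, and raw counts were deposited; bcl2fastq 2.20.0.422 is named in the submitters' processing notes. Reads that align to several places are not in the counts. Rows that name no gene were removed; they held 15.3 to 26.5% of reads as not aligned and 5.60 to 9.45% as not unique in the 10 libraries.

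Counts of all 4 groups were fitted in 1 model with edgeR 4.0.16 in R 4.3.3 (TMM scaling, quasi-likelihood test, Benjamini-Hochberg adjustment, threshold 0.05) over 14333 genes that reached 1 CPM in 5 or more libraries. SE was taken from the log2 fold change and its F value. The comparison members, gene lists and naming rule (the 12 highest and 12 lowest called genes at 10 CPM or more without overlap, list examples, each list's extremes and its exceptions) were chosen with earlier results of these data known. Each library is 1 tumor or liver. The procedure was tested on simulated data in which few genes changed, as many up as down. Such data do not test the scaling in a comparison where 70.3% of genes were called. Alternatives were DESeq2 1.42.0, a likelihood ratio test, other scalings and filters, fewer groups, a replicate block and leaving out libraries. Promoter windows came from RefSeq on GRCm38.p6 and gene positions from GENCODE on GRCm39; no coordinates were converted. Some genes that the naming rule selects are not reported here.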

Additional observations from a re-analysis of the deposited data

Results flagged for a closer look

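In each group of 5 libraries, the highest or lowest value was compared with the rest by its gap to the nearest other value, divided by the range (Dixon's critical value 0.71). Of 110 groups tested, 23 had a value beyond it. Of these values, 9 were in tumor 4, 7 in liver 4, 3 each in tumors 3 and 5 and 1 in liver 2. The critical value stands for about 1 flag in 20 only with independent, normally distributed values. The groups here held CPM of genes chosen with results known, some of them related, so 23 was not compared with chance.

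Tumor 4 stood above the other tumors for hepatocyte genes, with 28.8 CPM of Cyp7a1, 44.1 CPM of Cyp8b1, 837 CPM of Cyp2e1, 1093 CPM of Scd1, 1.69 CPM of Axin2 and 3080 CPM summed over cytochrome P450 genes. It also did so for the sinusoidal endothelial Clec4g (8.04 CPM), the Kupffer cell gene Clec4f (36.3 CPM) and Zap70 (2.08 CPM). Liver 4 stood above the other livers for Mycl (53.9 CPM), Cdk1 (7.17 CPM), Psat1 (3.76 CPM), Asns (2.73 CPM), Afp (6.35 CPM), Igf2 (11.2 CPM) and H19 (39.1 CPM). Tumor 3 was apart for Col1a1 (871 CPM), Gpnmb (117.5 CPM) and the summed macrophage and monocyte markers (2074 CPM). Tumor 5 was apart for Slc51b (47.5 CPM) and the summed erythroid markers (662.6 CPM), and had the lowest Mki67 (74.5 CPM). The Muc13 value of liver 2 (0.0367 CPM) was a single read.

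For 28 of the genes described, Aldafermin + MYC and sgTrp53 + MYC tumors differed by the test of the difference itself (adjusted p under 0.05), which also compares deposited tables. Csf1r, Cd163, Mrc1 and Fn1 were not part of this count. The log2 difference was positive, higher in Aldafermin + MYC tumors, for the p53 targets Cdkn1a (1.97), Eda2r (4.88), Ccng1 (1.44), Phlda3 (2.28), Mdm2 (0.43) and Psrc1 (1.18). It was also positive for Afp (2.57), Sall4 (3.75), Arxes1 (0.97), Slc7a9 (1.08), Alb (1.56), Apob (0.98), Sqle (0.84), Fgfr4 (0.48), Fbl (0.43), Pttg1 (0.68), Abcg2 (0.85), Acta2 (1.47) and Cd34 (0.76). It was negative for Sult2a1 (-4.72), Baat (-2.09), Nr1h4 (-0.95), Nr1i3 (-1.46), Cps1 (-1.26), Krt19 (-6.67), Pfkm (-1.52), Ptgds (-3.35) and Vldlr (-2.53).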

How the results depend on the processing

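The calls split as 5506 higher and 4577 lower, and DESeq2 gave 5266 and 4962. Scaling by library size alone gave 8618 higher and 2405 lower. With that scaling, 7911 of the 10083 calls were kept in the same direction and 220 took the opposite one. A test against a fold of 2 gave 2848 higher and 2464 lower. Leaving out each library in turn gave 5219 to 5632 higher and 4305 to 4583 lower. The replicate block gave 5407 higher and 4629 lower. Tumors and livers with the same replicate number carry different mouse numbers, and the labels name no pairs. The correlations of same-numbered deviations ran from -0.104 to 0.167, and only replicates 3 and 5 correlated best with their own number. Such correlations cannot decide whether samples were paired. With library size alone the log2 fold change of Paics turned to 0.30 and the log2 fold change of Klb to 0.56, and that of Klb was 0.041 with livers 4 to 5 only. The log2 fold change of Nr0b2, which was not called, was between -0.081 and 0.44 when a tumor was left out, and negative only without tumor 5. Of 128 named genes, 123 were called, and 20 of these lost the call in some setting. The causes of these changes were not tested.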
